A study of Mus musculus with 6 samples.

Results

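The 31 genes described here make cholesterol, control its synthesis, or move, store and export it. They were chosen by name, as the rows of the 6 bulk-seq tables that carry these gene symbols, and they are 31 of the 25576 genes listed above 0 in at least 1 library. Each of the 31 was listed above 0 in every library. By role they are 7 enzymes of early synthesis, 11 enzymes of late synthesis, 5 genes of SREBP control, 3 genes of intracellular transport and storage, and 5 genes of efflux and its control by LXR. The data are RNA sequencing of spinal cord from mice of the FVB strain at postnatal day 4, with 3 libraries labelled SMA and 3 labelled control. SMA mice are the severe form of the Taiwanese model of spinal muscular atrophy and have the genotype mSmn-/-, hSMN22tg/0. Control mice have the genotype mSmn+/-, hSMN22tg/0, so that they also carry the human SMN2 transgene and have lost 1 allele of the mouse gene. The study's methods give bulk-seq as triplicates with n = 1 per group, and p-values here therefore measure only the spread between these libraries, part of which may be technical. Values are FPKM, fragments scaled to exon length and to the number of mapped fragments, and every fold change is SMA against control on the log2(FPKM + 1) scale, where differences of weakly expressed genes come out too small.

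Cholesterol is built from acetyl-CoA units, first into isoprenoids and farnesyl diphosphate, and then through squalene and lanosterol into the sterol. When membranes of the endoplasmic reticulum hold little sterol, SCAP carries the SREBP transcription factors to the Golgi apparatus, where they are cut and released to activate the genes of synthesis and uptake, while INSIG proteins hold them back when sterol is plentiful. Brain and spinal cord make nearly all of their own cholesterol because plasma lipoproteins do not cross the blood-brain barrier, and oligodendrocytes need large amounts of it for myelin. Surplus sterol is oxidised and activates the LXR receptors, which turn on exporters and apolipoprotein E.

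Smn1, the targeted gene, was listed at 10.4, 8.64 and 11.9 FPKM (control replicates 1, 2 and 3) against 8.48, 9.30 and 11.1 FPKM (SMA replicates 1, 2 and 3). The groups overlapped, with a log2 fold change of -0.09 over 6 libraries and -0.20 without control replicate 2. The genotype labels therefore have no check in the Smn1 values, and every direction below rests on them. The paper describes genotyping from tail tissue and, by staining, less CD31 (Pecam1) and Col3a1 in SMA cord. Pecam1 was listed at 5.19, 7.06 and 5.26 FPKM (control replicates 1, 2 and 3) against 4.53, 2.92 and 3.64 FPKM (SMA replicates 1, 2 and 3). For Col3a1 the log2 fold change was -1.59 over 6 libraries, with overlapping groups. An exchange of labels was not tested. The labelled tissue was checked against cell type markers. Over 10 neuron markers the summed FPKM was 1205, 659 and 1237 (control replicates 1, 2 and 3) against 1185, 1286 and 1292 (SMA replicates 1, 2 and 3), led by Tubb3, and over 7 astrocyte markers it was 803, 579 and 784 (control replicates 1, 2 and 3) against 779, 858 and 795 (SMA replicates 1, 2 and 3), led by Aldoc. None of the neuron, astrocyte, oligodendrocyte, oligodendrocyte precursor, microglia, Schwann cell, endothelial and fibroblast markers was at 0 in any library.

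Control replicate 2 stands apart from the other 5 libraries. All 16 hepatocyte markers were highest there, with summed FPKM of 95.7, 31260.0 and 66.9 (control replicates 1, 2 and 3) against 56.3, 121 and 69.4 (SMA replicates 1, 2 and 3), a multiple of 450.5 of the median of the other 5 libraries. Alb, the most abundant of them, was listed at 44.6, 15894 and 30.7 FPKM (control replicates 1, 2 and 3) against 24.6, 56.2 and 30.5 FPKM (SMA replicates 1, 2 and 3). The 7 erythroid markers, led by Hbb-bs, were also highest there, with summed FPKM of 1861, 18823 and 1179 (control replicates 1, 2 and 3) against 1115, 1718 and 1332 (SMA replicates 1, 2 and 3). All 10 neuron markers were lowest in control replicate 2, and their sum there was 0.532 times the median of the other libraries. Fold changes and counts are therefore given over all 6 libraries and over the 5 libraries without control replicate 2.

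The 31 genes split in control replicate 2. Of them 14 (45.2%) had their highest FPKM in that library and 8 (25.8%) their lowest, against 24.7% and 44.9% of all genes tested. No early synthesis enzyme was highest there and 5 of 7 were lowest, down to 0.674 times the median of the other libraries for Mvd, which makes isopentenyl diphosphate. By contrast all 3 genes of transport and storage and 3 of the 5 efflux genes were highest in control replicate 2. Nr1h3, which encodes LXR alpha, had the largest multiple, with 0.742, 4.00 and 0.270 FPKM (control replicates 1, 2 and 3) against 0.844, 0.259 and 0.342 FPKM (SMA replicates 1, 2 and 3), or 11.7 times the median of the other 5 libraries. Apoe, the main apolipoprotein of central nervous system lipoproteins and also a liver product, followed at 3.54 times that median. Among synthesis enzymes the multiples were largest for the isomerase gene Ebp (2.55), the desaturase gene Sc5d (2.05) and Hsd17b7 (1.56), and among regulators for Insig2 (1.29). The part of the hepatocyte transcripts in these values was not tested.

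**Figure D1:**
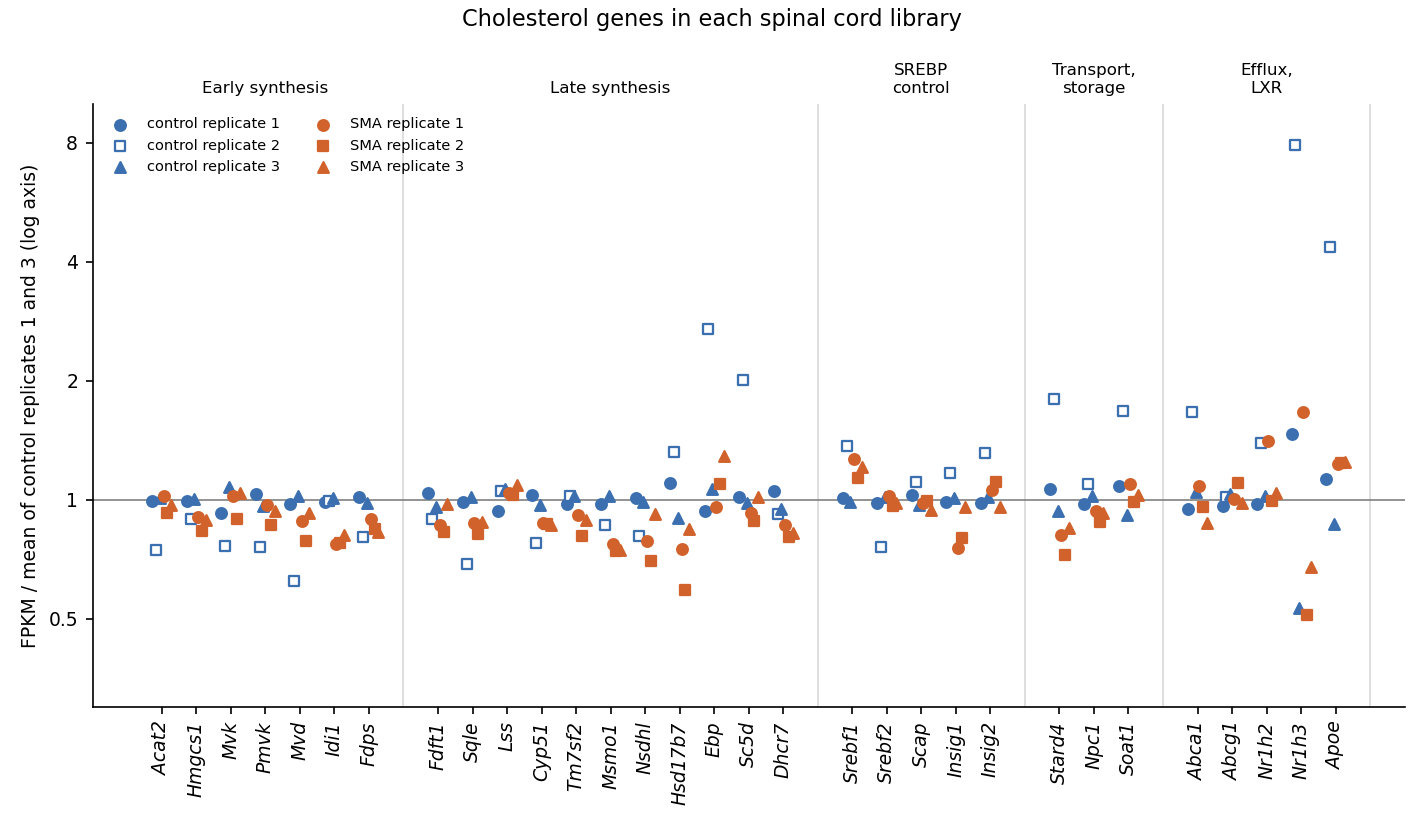
FPKM of each of the 31 genes in each library, divided by the mean of control replicates 1 and 3 (log axis), with genes ordered by role. Control replicate 2 (open squares) lies far above the other libraries for Nr1h3, Apoe, Ebp and Sc5d and below them for Mvd and Sqle, while the libraries labelled SMA (orange) lie below 1 for most synthesis enzymes.

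Genes of liver sterol disposal did not split in control replicate 2. The 10 genes of this list, which serve bile acid synthesis, bile transport and other liver functions, summed to 3.87, 347 and 4.47 (control replicates 1, 2 and 3) against 4.84, 4.20 and 3.89 (SMA replicates 1, 2 and 3) FPKM. All 9 genes of the list that could be tested over 6 libraries were highest in control replicate 2, and 1 of the 10 had a mean of at least 0.5 FPKM without it. Cyp7a1, Cyp8b1, Abcg8, Baat and Apoc3 were at 0 in at least 1 of the other 5 libraries. By contrast Hmgcs1, an enzyme of cholesterol synthesis, was listed at 197 FPKM in control replicate 2, within the range of the other libraries.

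The libraries labelled SMA were compared with those labelled control in limma, which fits each gene separately and shares variance information between genes, and genes under a mean of 0.5 FPKM were left out. Over 6 libraries all 31 genes were among the 17088 tested, and no gene of any kind passed the adjusted threshold of 0.05 in limma (0% of genes tested, lowest adjusted p = 0.683). Taking an unadjusted p under 0.05, 5 of the 31 genes were lower in SMA, where 2.39% of all genes tested were, and 0 were higher, where 3.40% of all genes were. All 3 SMA libraries lay below all 3 control libraries for 8 of the 31 genes (6.67% of all genes tested) and above them for 0 (10.3%). Without SMA replicate 2 the count of lower genes was 1 (0.830% of all genes tested), and it was 3 without SMA replicate 1 (1.79%) or without SMA replicate 3 (0.731%). It was 2 when libraries were rescaled to the same total (2.26% of all genes tested). The median log2 fold change of the 31 genes was -0.14, beside 0.04 for all genes tested.

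Without control replicate 2 more of the genes separated the groups. Of the 31 genes 30 were tested among 16574, since Nr1h3 fell under the minimum mean, and none passed the adjusted threshold of 0.05 in limma (lowest adjusted p = 0.180, for Msmo1), where 0.0121% of all genes tested did. At an unadjusted p under 0.05, 12 of the 30 were lower in SMA, beside 5.20% of all genes tested, and 2 were higher, beside 5.27%. All 3 SMA libraries lay below both control libraries for 14 of the 30 (13.9% of all genes tested) and above both for 2 (14.2%). The median log2 fold change was -0.11 for the 30 genes and 0.00 for all genes tested. The counts of lower genes rest on few libraries, and without SMA replicate 2 as well they were 6 lower (3.29% of all genes tested) and 1 higher (3.52%). The lowest p that exchanging library labels can reach for any gene is 0.1, for 3 libraries against 3 as for 3 against 2 (exact two-sided permutation test).

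**Figure D2:**
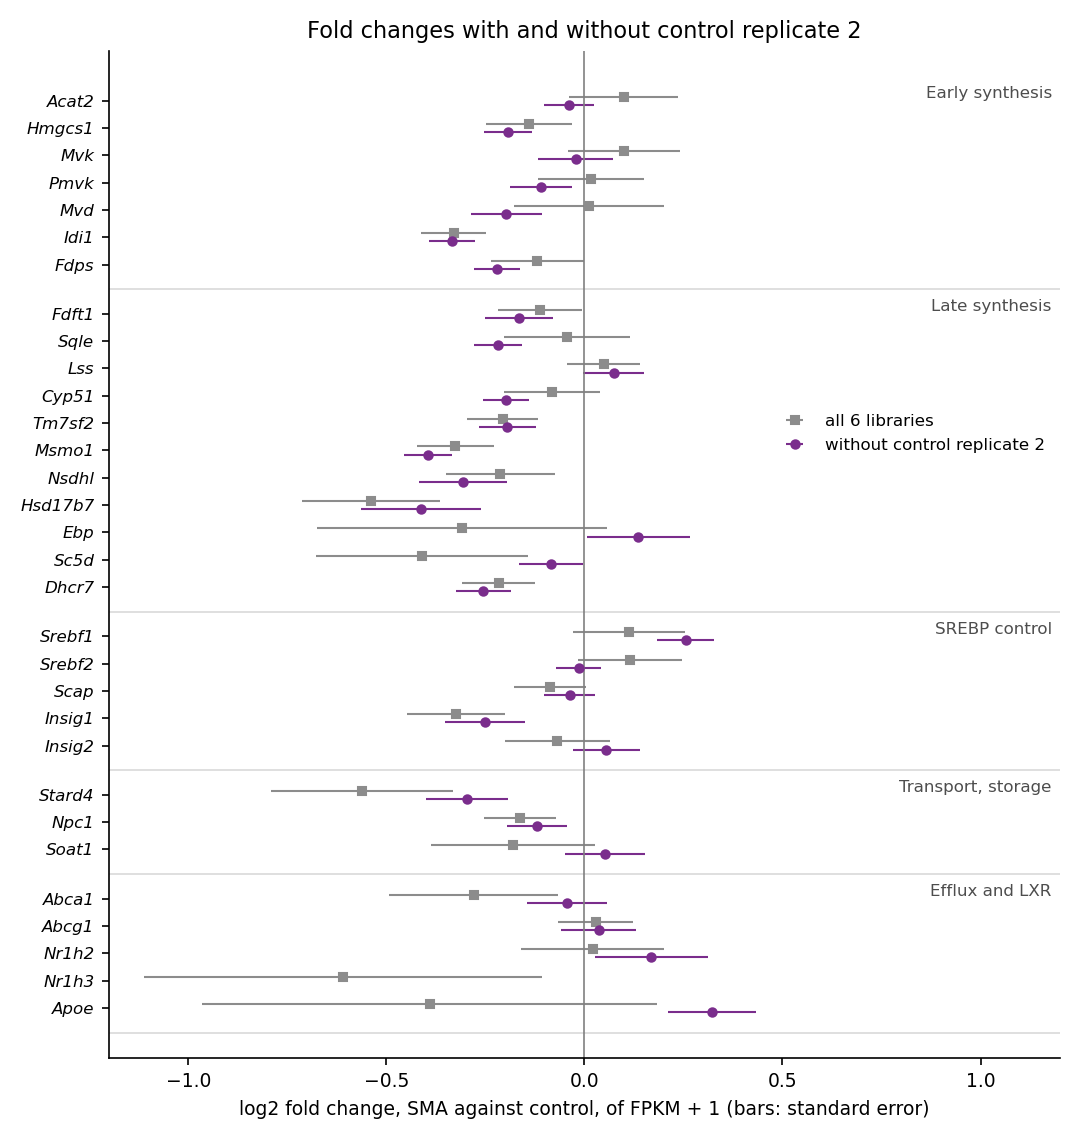
Log2 fold change of each gene, SMA against control, with its standard error from limma, over all 6 libraries (grey squares) and without control replicate 2 (purple circles). Without that library 16 of the 18 synthesis enzymes lie below 0, the bars become shorter for Apoe, Ebp and Sc5d, and Apoe moves from -0.39 to 0.32.

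Synthesis enzymes carried most of the lower values. Over the 5 libraries without control replicate 2, 10 of the 18 enzymes were lower at an unadjusted p under 0.05 (5.20% of all genes tested) and 0 were higher (5.27%). A log2 fold change below 0 was found for 16 of the 18 (49.6% of all genes tested), and for 11 the groups did not overlap, all with SMA lower (13.9%). The summed FPKM of the 18 enzymes was 734, 672 and 736 (control replicates 1, 2 and 3) against 657, 614 and 658 (SMA replicates 1, 2 and 3). SMA replicate 2 was lowest, and control replicate 2 lay between the SMA libraries and the other controls. In control replicate 2 the sum includes 22.1 FPKM of Ebp and 38.9 FPKM of Sc5d, each more than in any other library. Over 6 libraries 3 of the 18 enzymes were lower at an unadjusted p under 0.05 (2.39% of all genes tested), 13 had a log2 fold change below 0 (42.0%) and 5 had no overlap (6.67%). In bulk tissue, fewer cells of a type and less RNA per cell cannot be told apart.

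Early synthesis was led in abundance by Hmgcs1, which joins acetoacetyl-CoA and acetyl-CoA into HMG-CoA and had a mean above that of 99.1% of the genes tested. Its promoter is shown because it is the only one, among the 25 of the 31 genes with an entry in the RefSeq promoter table (36 windows), whose 250 bases before the start held the sterol regulatory element searched, TCACNCCAC on either strand. Of all 32851 promoter windows of this length 1.05% held it. Fdps, Fdft1, Sqle, Stard4, Npc1 and Abcg1 had no RefSeq promoter entry and were not searched. CCAAT, the motif bound by NF-Y, which acts beside SREBP at many sterol genes, was found in 55.6% of the 36 windows and in 33.8% of all windows, and the E box CACGTG, which SREBP proteins can also bind, in 16.7% and 6.02%. The windows of Cyp51, Insig1 and Srebf2 are set beside it for comparison, a choice made after their values were seen. All are RefSeq sequence of GRCm38.p6, written 5′ to 3′ on the strand of the gene and ending before the first annotated exon, with the sterol regulatory element, CCAAT on either strand and the E box in capitals.
Hmgcs1, chr13:119690101-119690350, plus strand: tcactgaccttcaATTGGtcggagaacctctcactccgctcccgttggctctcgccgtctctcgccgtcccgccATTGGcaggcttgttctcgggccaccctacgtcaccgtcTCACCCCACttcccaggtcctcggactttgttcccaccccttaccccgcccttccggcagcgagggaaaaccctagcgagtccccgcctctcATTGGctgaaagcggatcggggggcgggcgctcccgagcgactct
Cyp51, chr5:4104747-4104947, minus strand: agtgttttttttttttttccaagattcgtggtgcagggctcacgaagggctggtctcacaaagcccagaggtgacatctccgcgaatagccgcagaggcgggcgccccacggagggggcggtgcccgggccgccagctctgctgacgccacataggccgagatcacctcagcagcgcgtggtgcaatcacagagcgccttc
Insig1, chr5:28071162-28071362, plus strand: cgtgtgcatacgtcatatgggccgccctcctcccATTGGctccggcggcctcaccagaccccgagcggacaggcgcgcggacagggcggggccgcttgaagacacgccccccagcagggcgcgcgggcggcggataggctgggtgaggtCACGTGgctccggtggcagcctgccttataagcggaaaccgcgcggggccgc
Srebf2, chr15:82147019-82147180, plus strand: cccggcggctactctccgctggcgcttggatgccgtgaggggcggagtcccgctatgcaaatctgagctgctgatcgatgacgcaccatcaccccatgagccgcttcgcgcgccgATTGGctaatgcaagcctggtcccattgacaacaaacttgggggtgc
In Hmgcs1 the element begins 137 bases before the RefSeq start and CCAAT motifs on the opposite strand begin 237, 176 and 45 bases before it. The E box of Insig1 begins 101 bases before its start and the CCAAT motif 216 bases before it, and in Srebf2 the CCAAT motif begins 135 bases before the start. Cyp51 held a CCAAT motif 29 bases before its RefSeq start, inside annotated exon sequence that is not printed. A match is a description of these letters and not a site of binding. Variants of the sterol regulatory element were not searched, so a window without a match may hold one.

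The 7 early enzymes summed to 431, 370.3 and 436 (control replicates 1, 2 and 3) against 394, 365 and 387 (SMA replicates 1, 2 and 3), with control replicate 2 below SMA replicates 1 and 3. Over 6 libraries 3 of the 7 had a log2 fold change below 0 (42.0% of all genes tested), with a median of 0.01, and without control replicate 2 all 7 did (49.6%), with a median of -0.19. Hmgcs1 was listed at 219, 197 and 221 FPKM (control replicates 1, 2 and 3) against 198, 183 and 195 FPKM (SMA replicates 1, 2 and 3). Control replicates 1 and 3 were the highest, and control replicate 2 lay inside the range of the SMA libraries. SMA against control gave a log2 fold change of -0.14 (limma, standard error 0.11, adjusted p = 0.683) over 6 libraries and -0.19 (limma, standard error 0.06, adjusted p = 0.366) without control replicate 2, where the groups did not overlap (exact two-sided permutation test, p = 0.1).

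Idi1, which isomerises isopentenyl diphosphate and lies on chromosome 13 from 8885501 to 8892451 of GRCm38, separated the groups with or without control replicate 2. Its FPKM was 44.0, 44.2 and 45.2 (control replicates 1, 2 and 3) against 34.5, 34.7 and 36.3 (SMA replicates 1, 2 and 3). The 3 controls lay within 1.21 FPKM of each other and above all SMA libraries. Idi1 had a log2 fold change of -0.33 (limma, standard error 0.08, adjusted p = 0.683; exact two-sided permutation test, p = 0.1) over 6 libraries and -0.33 (limma, standard error 0.06, adjusted p = 0.245) without control replicate 2.

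Fdps, the synthase of farnesyl diphosphate, was listed at 68.1, 54.0 and 65.9 FPKM (control replicates 1, 2 and 3) against 59.9, 56.4 and 55.7 FPKM (SMA replicates 1, 2 and 3). Control replicate 2 was the lowest library of all, so that the groups overlapped over 6 libraries (log2 fold change -0.12) and did not without it (-0.22, standard error 0.06, adjusted p = 0.334 from limma). Of the remaining early enzymes, Mvd had SMA libraries at 12.3 to 14.5 FPKM below control replicates 1 and 3 at 15.2 and 16.0 FPKM, and above control replicate 2 at 9.75 FPKM, with log2 fold changes of 0.01 over 6 libraries and -0.20 over 5. Acat2, which makes acetoacetyl-CoA, and the mevalonate kinases Mvk and Pmvk overlapped in both comparisons, with log2 fold changes of 0.10, 0.10 and 0.02 over 6 libraries, which turned to -0.04, -0.02 and -0.11 without control replicate 2.

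In late synthesis 7 of 11 enzymes were lower at an unadjusted p under 0.05 without control replicate 2 (5.20% of all genes tested), and 2 of 11 over 6 libraries (2.39%). Sqle, the squalene epoxidase and a control point of the pathway, was the most abundant, with 47.5, 33.3 and 48.9 FPKM (control replicates 1, 2 and 3) against 42.2, 39.5 and 42.3 FPKM (SMA replicates 1, 2 and 3). Control replicate 2 was lowest and control replicates 1 and 3 highest, with the SMA libraries between. The log2 fold change was -0.04 over 6 libraries and -0.22 (limma, standard error 0.06, adjusted p = 0.350) without control replicate 2. Over 6 libraries it turned positive, to 0.03, when control replicate 1 was left out and to 0.05 when control replicate 3 was.

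Cyp51, which demethylates lanosterol, showed the same order, with FPKM of 42.8, 32.4 and 40.4 (control replicates 1, 2 and 3) against 36.3, 36.2 and 35.9 (SMA replicates 1, 2 and 3). The 3 SMA libraries lay within 0.374 FPKM of each other, below control replicates 1 and 3 and above control replicate 2. Its log2 fold change was -0.08 over 6 libraries and -0.20 (limma, standard error 0.06, adjusted p = 0.364) over 5. Over 6 libraries it came to -0.0027 when control replicate 1 was left out and to -0.04 when control replicate 3 was. Tm7sf2, a sterol reductase of the next step, was listed at 30.7, 32.2 and 32.2 FPKM (control replicates 1, 2 and 3) against 28.7, 25.5 and 27.9 FPKM (SMA replicates 1, 2 and 3). All controls lay above all SMA libraries, with log2 fold changes of -0.21 and -0.19 (standard error 0.07).

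The 3 enzymes that together remove the methyl groups at carbon 4 of the sterol, Msmo1, Nsdhl and Hsd17b7, had the lowest log2 fold changes of late synthesis without control replicate 2, a grouping made after the values were seen, while over 6 libraries Sc5d, Ebp and Dhcr7 were lower than Nsdhl. Msmo1, the oxygenase, on chromosome 8 from 64718139 to 64733792 of GRCm38, was listed at 39.6, 35.0 and 41.6 FPKM (control replicates 1, 2 and 3) against 31.4, 30.1 and 30.4 FPKM (SMA replicates 1, 2 and 3). All 3 SMA libraries lay below all controls, and control replicate 2 was the nearest to them. Msmo1 had a log2 fold change of -0.33 (limma, standard error 0.10, adjusted p = 0.683; exact two-sided permutation test, p = 0.1) over 6 libraries and -0.39 (limma, standard error 0.06, adjusted p = 0.180) without control replicate 2.

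Nsdhl, the dehydrogenase, is on the X chromosome and had FPKM of 17.3, 13.9 and 16.9 (control replicates 1, 2 and 3) against 13.4, 11.96 and 15.8 (SMA replicates 1, 2 and 3). SMA replicate 3 overlapped the controls when control replicate 2 was included, and no SMA library reached control replicates 1 or 3. Its log2 fold change was -0.21 over 6 libraries and -0.31 (limma, standard error 0.11, adjusted p = 0.434) over 5. Hsd17b7, the ketoreductase, was the least abundant of the 3 with 11.3, 13.6 and 9.26 FPKM (control replicates 1, 2 and 3) against 7.74, 6.11 and 8.71 FPKM (SMA replicates 1, 2 and 3). Control replicate 2 was highest and SMA replicate 2 lowest, all SMA libraries lay below all controls, and control replicate 3 was only 0.551 FPKM above SMA replicate 3. Hsd17b7 had a log2 fold change of -0.54 (standard error 0.17) over 6 libraries and -0.41 (limma, standard error 0.15, adjusted p = 0.434) over 5.

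Dhcr7, which encodes a reductase of the final steps, was listed at 37.2, 32.6 and 33.7 FPKM (control replicates 1, 2 and 3) against 30.7, 28.6 and 29.2 FPKM (SMA replicates 1, 2 and 3). No SMA library reached any control, and the log2 fold changes were -0.22 and -0.26 (limma, standard error 0.07, adjusted p = 0.350 over 5 libraries). Ebp, the sterol isomerase, also on the X chromosome, went the other way without control replicate 2. Its values were 7.67, 22.1 and 8.70 FPKM (control replicates 1, 2 and 3) against 7.87, 8.96 and 10.6 FPKM (SMA replicates 1, 2 and 3), with overlapping groups in both comparisons and log2 fold changes of -0.31 over 6 libraries and 0.14 (standard error 0.13) over 5. The squalene synthase gene Fdft1, the lanosterol synthase gene Lss and Sc5d overlapped between the groups in both comparisons, with log2 fold changes of -0.11, 0.05 and -0.41 over 6 libraries and -0.17, 0.07 and -0.08 over 5.

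**Figure D3:**
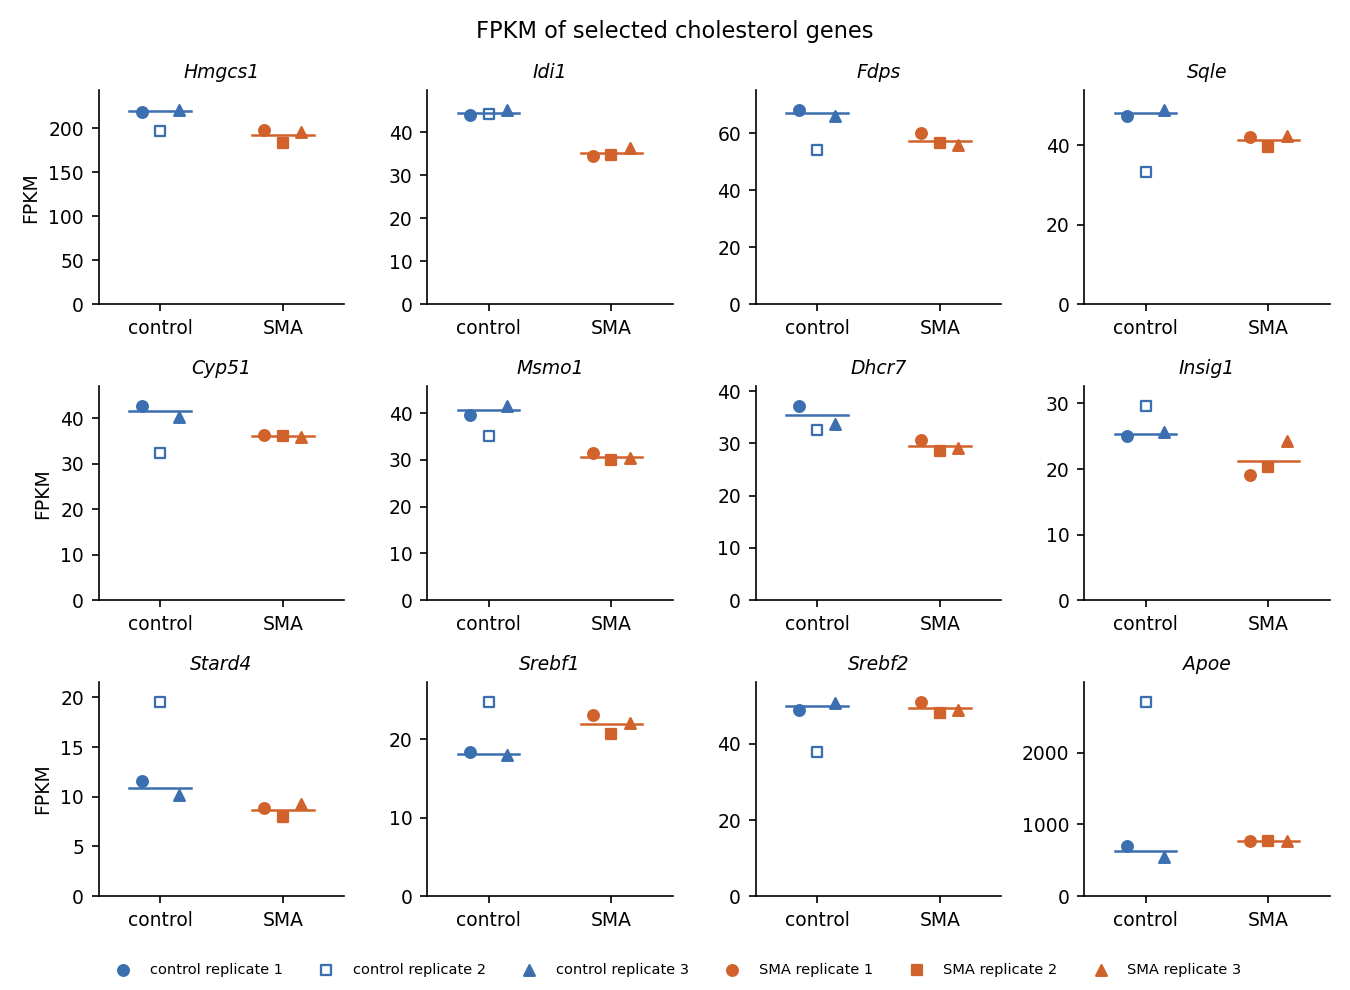
FPKM of 12 of the genes in each library, with each axis starting at 0 and control replicate 2 drawn as an open square. Lines are group means without control replicate 2, and SMA libraries lie below control replicates 1 and 3 for the first 9 genes, above them for Srebf1 and Apoe, and on both sides of them for Srebf2. The genes are a selection. Synthesis enzymes whose groups overlap without control replicate 2 (Acat2, Mvk, Pmvk, Fdft1, Lss, Ebp and Sc5d) are not drawn.

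Among the genes of SREBP control, Srebf2, the transcription factor gene for cholesterol synthesis and uptake, was the most abundant. Its values were 49.1, 37.9 and 50.8 FPKM (control replicates 1, 2 and 3) against 51.2, 48.2 and 49.0 FPKM (SMA replicates 1, 2 and 3). Only control replicate 2 stood apart, below all others, and the log2 fold change was 0.12 over 6 libraries and -0.01 (standard error 0.06) without it. Insig1, which retains the SCAP-SREBP complex and is itself an SREBP target, was listed at 25.1, 29.7 and 25.6 FPKM (control replicates 1, 2 and 3) against 19.2, 20.3 and 24.3 FPKM (SMA replicates 1, 2 and 3). All SMA libraries lay below all controls, with SMA replicate 3 only 0.787 FPKM under control replicate 1. Insig1 had a log2 fold change of -0.32 (limma, standard error 0.12, adjusted p = 0.683; exact two-sided permutation test, p = 0.1) over 6 libraries and -0.25 (limma, standard error 0.10, adjusted p = 0.451) over 5.

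Srebf1, whose products drive fatty acid synthesis genes and which is a target of LXR, was listed at 18.4, 24.8 and 17.9 FPKM (control replicates 1, 2 and 3) against 23.0, 20.6 and 22.0 FPKM (SMA replicates 1, 2 and 3). Control replicate 2 was highest, and the other controls lay below every SMA library. The log2 fold change was 0.11 over 6 libraries, with overlapping groups, and 0.26 (limma, standard error 0.07, adjusted p = 0.360; exact two-sided permutation test, p = 0.1) without control replicate 2. Insig2, the second INSIG gene, ranged from 14.7 FPKM in SMA replicate 3 to 20.2 FPKM in control replicate 2 and overlapped in both comparisons, with log2 fold changes of -0.07 and 0.06. Scap, the escort of the SREBP proteins, ranged from 25.3 to 29.9 FPKM and also overlapped (log2 fold change -0.09 and -0.04).

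Stard4, a cytosolic sterol carrier, was the transport gene with the lowest fold changes. Its values were 11.6, 19.6 and 10.2 FPKM (control replicates 1, 2 and 3) against 8.87, 7.92 and 9.27 FPKM (SMA replicates 1, 2 and 3). Control replicate 2 was highest, and all SMA libraries lay below all controls. Its log2 fold change came to -0.56 (limma, standard error 0.23, adjusted p = 0.683) over 6 libraries, and -0.30 (limma, standard error 0.10, adjusted p = 0.416) without control replicate 2. Npc1, which exports cholesterol from lysosomes, was listed at 14.0, 15.7 and 14.6 FPKM (control replicates 1, 2 and 3) against 13.5, 12.6 and 13.3 FPKM (SMA replicates 1, 2 and 3). The order of the groups was the same at a smaller size, with log2 fold changes of -0.16 and -0.12 (standard error 0.08). Soat1, which esterifies cholesterol for storage, overlapped, with a log2 fold change of -0.18 over 6 libraries and 0.05 over 5.

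Apoe was the most abundant of the 31 genes, with a mean above that of 99.9% of the genes tested, and its direction turned with control replicate 2. Its values were 704, 2710.1 and 539 FPKM (control replicates 1, 2 and 3) against 765, 772 and 773 FPKM (SMA replicates 1, 2 and 3). The SMA libraries lay within 8.93 FPKM of each other, above control replicates 1 and 3 and far below control replicate 2. For Apoe the log2 fold change came to -0.39 (limma, standard error 0.57, adjusted p = 0.791) over 6 libraries and 0.32 (limma, standard error 0.11, adjusted p = 0.410; exact two-sided permutation test, p = 0.1) without control replicate 2. The size rests on control replicate 3, since without that library as well the log2 fold change was 0.13 (limma, adjusted p = 0.354), and without control replicate 1 in its place it was 0.51 (limma, adjusted p = 0.0393), with a single control left in each case that is assumed to vary like the other libraries.

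The other efflux genes did not separate the groups. Abca1, the exporter of cholesterol to apolipoproteins and a target of LXR, ranged from 15.2 to 18.9 FPKM outside control replicate 2, where it was 29.1 FPKM. Its log2 fold change was -0.28 over 6 libraries and -0.04 (standard error 0.10) over 5. Abcg1, an exporter to lipoprotein particles and another LXR target, stayed between 8.43 and 9.62 FPKM in all 6 libraries (log2 fold change 0.03 and 0.04). Nr1h2, which encodes LXR beta, had log2 fold changes of 0.02 and 0.17, with SMA replicate 1 highest at 14.0 FPKM, and without that library as well they were -0.12 and 0.02. Nr1h3 was -0.61 (standard error 0.50) over 6 libraries, and its values in the other 5 libraries overlapped.

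Some of the genes share exon sequence with a neighbour, so that reads can be split between them. On the same strand this held for 26.7% of the exon bases of Fdps (Gm43738) and 12.1% of those of Tm7sf2 (Vps51). On the opposite strand it held for 18.3% of the exon bases of Fdft1 (Ctsb), 13.2% of those of Scap, 12.1% of those of Hmgcs1 (Gm48342), 9.22% of those of Idi1 (Gm48574), 5.31% of those of Npc1, 3.76% of those of Cyp51 and 3.53% of those of Lss. Srebf1 and Nr1h3 shared less than 2% on either strand, and the remaining genes none. The libraries are strand-specific, and whether strand was used when FPKM were computed is not given in the sources used here.

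Other genes of sterol biology were taken from lists around the 31 genes. Of 8 genes for SREBP processing and sterol-dependent degradation, 0 passed an unadjusted p of 0.05 in either direction without control replicate 2, with a median log2 fold change of -0.01. Of 6 lipoprotein uptake receptor genes 0 were lower and 0 higher (median 0.05), led by Lrp1 at 73.5 to 97.7 FPKM, a large endocytic receptor that binds apolipoprotein E. Over 6 libraries these lists also had 0 lower and 0 higher genes, with medians of 0.00 and 0.11. Of all genes tested, 5.20% were lower and 5.27% higher without control replicate 2, and 2.39% and 3.40% over 6 libraries.

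Of 9 genes for lysosomal and membrane sterol handling 1 was lower (5.20% of all genes tested) and 1 higher (5.27%) without control replicate 2. Over 6 libraries 0 were lower (2.39%) and 1 was higher (3.40%). Osbp, a sterol carrier between the endoplasmic reticulum and the Golgi apparatus, was listed at 23.6, 19.8 and 22.7 FPKM (control replicates 1, 2 and 3) against 19.9, 19.6 and 20.3 FPKM (SMA replicates 1, 2 and 3). The SMA libraries lay below control replicates 1 and 3 and overlapped control replicate 2, and the log2 fold change was -0.13 over 6 libraries and -0.20 over 5. Osbpl5, a related lipid carrier, was listed at 12.7, 12.3 and 14.8 FPKM (control replicates 1, 2 and 3) against 17.7, 16.8 and 15.4 FPKM (SMA replicates 1, 2 and 3). Here all SMA libraries lay above all controls, with log2 fold changes of 0.30 over 6 libraries and 0.26 over 5. The latter was 0.15 without control replicate 1 and 0.36 without control replicate 3, with a single control left in each case. Gramd1a, a carrier of plasma membrane cholesterol and the most abundant of the list at 26.8 to 38.4 FPKM, overlapped.

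Of 10 lipoprotein and efflux partners or LXR targets 1 was lower (5.20% of all genes tested) and 0 higher (5.27%) without control replicate 2. Over 6 libraries 0 passed in either direction (2.39% and 3.40%). Pltp, a phospholipid transfer protein gene and an LXR target, was listed at 21.6, 18.2 and 20.8 FPKM (control replicates 1, 2 and 3) against 19.8, 15.4 and 11.8 FPKM (SMA replicates 1, 2 and 3). The SMA libraries spread over a wide range, with SMA replicate 3 lowest. For Pltp the log2 fold change was -0.37 over 6 libraries and -0.44 (standard error 0.18) over 5. When SMA replicate 3 was left out as well, these values were -0.20 and -0.27. Apoc1, a lipoprotein component, was the most abundant of the list only through control replicate 2, at 406 FPKM there and 0.755 to 4.77 FPKM in the other libraries. None of the 4 oxysterol enzyme genes tested was lower or higher in either comparison, and Cyp46a1, the neuronal cholesterol hydroxylase, ranged from 8.22 to 14.4 FPKM.

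Of 11 fatty acid synthesis and desaturation genes that SREBP proteins activate, 2 were lower and 0 higher without control replicate 2. The shares of all genes tested were 5.20% and 5.27%. Over 6 libraries 0 passed in either direction (2.39% and 3.40% of all genes tested). The medians were -0.06 without control replicate 2 and -0.08 over 6 libraries. The 2 lower genes were desaturases of the same family. Scd1 was listed at 38.6, 28.0 and 39.0 FPKM (control replicates 1, 2 and 3) against 28.6, 27.8 and 29.9 FPKM (SMA replicates 1, 2 and 3). Scd2, the most abundant gene of the list, was listed at 470.2, 328 and 475 FPKM (control replicates 1, 2 and 3) against 387, 388 and 389 FPKM (SMA replicates 1, 2 and 3). For both genes control replicates 1 and 3 were nearly equal and lay above every SMA library, while control replicate 2 was within or below the SMA range. The log2 fold changes were -0.27 and -0.11 over 6 libraries and -0.42 (limma, standard error 0.06, adjusted p = 0.176) and -0.28 (limma, standard error 0.06, adjusted p = 0.287) over 5.

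Markers of several cell types also differed between libraries. Of 7 oligodendrocyte markers tested, 3 were lower in SMA at an unadjusted p under 0.05 without control replicate 2 (5.20% of all genes tested). None was higher (5.27%), all 7 had a log2 fold change below 0 (49.6%), and the median was -0.42. Over 6 libraries 0 were lower (2.39%) and 0 higher (3.40%), with a median of -0.31. The summed FPKM of all 8 markers listed was 883, 864 and 1314 (control replicates 1, 2 and 3) against 695, 868 and 900.4 (SMA replicates 1, 2 and 3), led by Mbp, with control replicate 3 highest, SMA replicate 1 lowest and the other 4 libraries close together. Of the 5 oligodendrocyte precursor markers, led by Olig1, 1 was lower without control replicate 2 (5.20% of all genes tested) and 0 over 6 libraries (2.39%). Their summed FPKM was 125, 96.6 and 141 (control replicates 1, 2 and 3) against 123, 126 and 127 (SMA replicates 1, 2 and 3). Of the 6 endothelial markers 4 were lower in both comparisons, beside 2.39% of all genes tested over 6 libraries and 5.20% without control replicate 2. The endothelial sum, led by Cldn5, was 52.3, 60.1 and 54.1 (control replicates 1, 2 and 3) against 42.3, 32.8 and 33.2 (SMA replicates 1, 2 and 3), and no SMA library reached a control.

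The 4 Schwann cell markers summed to 109, 109.7 and 220.1 (control replicates 1, 2 and 3) against 164, 64.6 and 5.51 (SMA replicates 1, 2 and 3) FPKM, and the 5 fibroblast markers, led by Col1a2, to 161, 168 and 145 (control replicates 1, 2 and 3) against 176, 74.8 and 33.7 (SMA replicates 1, 2 and 3) FPKM. SMA replicate 3 was lowest for both, and without control replicate 2 none of these 4 and 5 markers was lower or higher at an unadjusted p under 0.05, while over 6 libraries 1 fibroblast marker was lower. Microglia markers, led by P2ry12, summed to 51.0, 59.1 and 47.1 (control replicates 1, 2 and 3) against 47.5, 51.8 and 46.3 (SMA replicates 1, 2 and 3) FPKM, with 0 lower and 0 higher in both comparisons. Without control replicate 2, 2 of the 7 astrocyte markers were lower and 1 higher, and 1 of the 10 neuron markers was lower and 2 higher. Over 6 libraries 1 astrocyte marker was higher and no neuron marker passed. Beside these counts, 5.20% of all genes tested were lower and 5.27% higher without control replicate 2. The shares over 6 libraries were 2.39% and 3.40%. The part of these cell types in the values of the cholesterol genes was not tested.

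**Figure D4:**
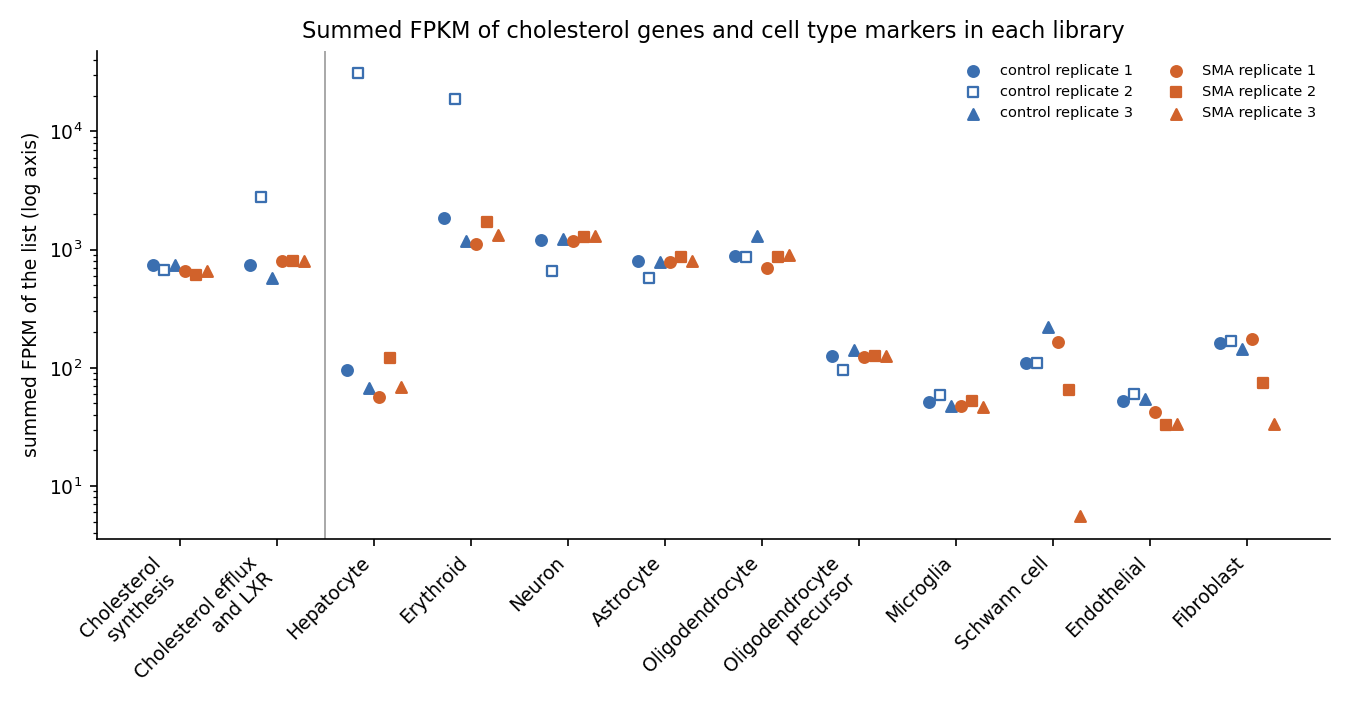
Summed FPKM of the 18 synthesis enzymes, the 5 efflux and LXR genes and 10 lists of cell type markers in each library (log axis). Control replicate 2 (open squares) stands far above the others for hepatocyte and erythroid markers and for efflux genes and below them for neuron markers, and SMA replicate 3 is lowest for Schwann cell and fibroblast markers.

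Xist, which is expressed from the inactive X chromosome of female cells, was listed at 101 FPKM in control replicate 2 and 146 FPKM in SMA replicate 3 and at most 0.241 FPKM in the other 4 libraries, a gene examined after the other values were seen. The libraries of a group are therefore not all repeats of a single sample. Among control replicates 1 and 3 and SMA replicates 1 and 2, which are alike in this, at an unadjusted p under 0.05, 12 of the 31 genes were lower, beside 3.22% of all genes tested, and 1 was higher, beside 3.16%. The median log2 fold change was -0.13 for the 31 genes and 0.00 for all genes tested. On the X chromosome, Nsdhl then had a log2 fold change of -0.40 and Ebp of 0.04.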

How the data were processed

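Bulk-seq of 6 spinal cord libraries was analysed, 3 labelled SMA and 3 labelled control. The deposited values are FPKM that the authors computed for each library. The submitters' processing notes name HISAT2, Cufflinks and the build mm10, and their versions and the annotation release are not given in the sources used here. A gene absent from a library was set to 0. The log2(FPKM + 1) values of genes whose mean reached 0.5 FPKM in the libraries fitted were compared using limma 3.58.1 (lmFit, eBayes with a variance trend) under R 4.3.3, once over 6 libraries and once without control replicate 2. No covariate was used. Two-sided p-values were adjusted over every gene tested by the Benjamini-Hochberg method. The procedure was also run on simulated data with 200 genes changed, and no result of that run is used here. The authors' own DESeq comparison uses read counts, which were not used here, so the test differs from theirs. Single genes also got an exact permutation test over libraries. Depth in reads is unknown. Estimated from how low FPKM values (under 0.15) scale between libraries, depth relative to SMA replicate 1 was between 1 and 1.15, and summed FPKM per library ranged from 346181 to 413653. Positions are from GENCODE M21, in which 99.3% of the listed genes were found.

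The members, their roles and all lists were chosen with earlier results of these data known. Named with values are Smn1, members with an unadjusted p under 0.05 in either comparison, and in each role the members with the largest absolute log2 fold change, the highest mean and the largest multiple in control replicate 2. Of the other pathway lists these are the members with an unadjusted p under 0.05 without control replicate 2 and, for most lists, the most abundant, and of most cell type lists the most abundant and those at 0. Promoters follow the motif rule given with them. Other genes were named after their values were seen. Alternatives were a pseudocount of 0.1, no filter or a minimum mean of 1 FPKM, rescaling to the same total with or without the 16 hepatocyte markers, median ratio scaling, quantile normalization, robust eBayes, eBayes without trend, the replicate number as a block, and leaving out each library.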

Additional observations from a re-analysis of the deposited data

How the results depend on the processing

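Over 6 libraries, the count of members lower at an unadjusted p under 0.05 was 5 and moved to 2 when libraries were rescaled to the same total (2.26% of all genes tested). Leaving out each library gave 1 to 12 lower and 0 to 2 higher members. The highest counts were without control replicate 2 and the lowest without SMA replicate 2. Without SMA replicate 1 or without SMA replicate 3 there were 3 lower. Of all genes tested, 0.731% to 5.20% were lower and 1.25% to 6.07% higher in these fits. The median log2 fold change of the members, -0.14, was -0.20 under median ratio scaling, where the median of all genes tested went from 0.0441 to -0.00399, and between -0.17 and -0.11 when a library was left out. Without control replicate 2 the counts were 12 lower and 2 higher, and 1 was higher with no filter (4.63% of all genes tested) or with quantile normalization (5.29%). Lower members were 11 in these 2 settings (4.23% and 5.23% of all genes tested) and 9 using eBayes without trend (5.09%). They were 14 when libraries were rescaled to the same total, with or without hepatocyte markers (8.82%). Leaving out a further SMA library gave 9 lower members without SMA replicate 1, 6 without SMA replicate 2 and 12 without SMA replicate 3. The shares of all genes tested were 4.81%, 3.29% and 3.22%. Higher members were 2, 1 and 1 in that order, beside 3.67%, 3.52% and 3.16% of all genes tested. The median, -0.11, was -0.16 when rescaled to the same total, with or without hepatocyte markers, and the median of all genes tested went from 0.00163 to -0.0432, so the members hardly moved against other genes. It was between -0.156 and -0.0622 when a library was left out.

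The replicate numbers do not pair the samples by the labels, and same-numbered libraries did not deviate together (r of their deviations from the group means across genes -0.04, 0.02 and 0.08). With the replicate number as a block, 3 members were lower over 6 libraries (1.77% of all genes tested). Without control replicate 2 the block leaves SMA replicate 2 without a partner, which takes it out of the comparison, and 5 were lower (3.34%) and 1 higher (3.33%).

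Of the 19 members named by the rule under processing, 18 without control replicate 2 since Nr1h3 was not tested there, the log2 fold change kept its sign under every setting other than the block and left-out libraries. Srebf2 went from -0.01 to 0.00323 with the block without control replicate 2, and there ranged from -0.0397 to 0.0106 when a library was left out. Over 6 libraries, leaving out a library gave -0.22 to 0.0527 for Sqle, -0.57 to 0.14 for Ebp, -0.0145 to 0.19 for Srebf2, -0.14 to 0.0552 for Insig2 and -0.84 to 0.32 for Apoe, whose adjusted p without control replicates 1 and 2 was 0.0393. For the other 12 members only the block and left-out libraries were compared. Leaving out a library turned the sign of 8 over 6 libraries and of 6 without control replicate 2, and the block that of 0 and 2 (Mvk and Abcg1). FPKM carry no counts, so no counting error could be given.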
